A study of Mus musculus with 21 samples.

Results

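A short hairpin against Trp53, the gene of the tumour suppressor p53, was compared with its absence in 2 pairs of mouse reprogramming cultures, which together are 4 of the 21 libraries of the series. The cells were ICR-strain embryonic fibroblasts (MEFs) at passage 2 infected with retroviruses carrying Oct4 (gene Pou5f1), Sox2, Klf4 and Myc, and RNA was taken on day 5. They are called SKOM cells here. Each pair consisted of a library labelled shp53+shDnmt1 and a library labelled shDnmt1, 1 pair in medium without vitamin C (Vc-) and 1 in medium with vitamin C (Vc+). A hairpin against Dnmt1, the maintenance DNA methyltransferase, was therefore carried by all 4 libraries, and no SKOM library carried the p53 hairpin without it. The controls named below carried Flag and a luciferase hairpin (Flag+shLuc), and the MEF libraries used for comparison, in a table of their own, carried shp53+shDnmt1, shDnmt1, shp53 or Flag+shLuc without the reprogramming factors. The hairpins came by retrovirus into mixed cultures, in which infected and uninfected cells, and cells that had and had not started to reprogramme, cannot be told apart.

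p53 is a transcription factor that is held at a low level by the ubiquitin ligase Mdm2 and accumulates after DNA damage or oncogene activity. It switches on genes of cell cycle arrest, apoptosis and DNA repair, and through the Cdk inhibitor p21 (gene Cdkn1a) it also lowers many genes of replication and mitosis indirectly. In fibroblasts given reprogramming factors p53 is known as a barrier, because the factors themselves set off arrest and death of many cells.

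Values were gene-level RNA sequencing scores that the authors had normalized within each medium. Every library of the Vc- table had a median of 180 and every library of the Vc+ table a median of 226, so the depth of sequencing is unknown. The highest value, shared by 10 genes in every library, was 19681 in Vc- and 28926 in Vc+ libraries and acts as a ceiling. A change is given as the log2 ratio of value + 5, shp53+shDnmt1 over shDnmt1, which understates changes of genes with low values. With 1 library for each combination, the test was limma on the mean of the 2 pair ratios, with the spread taken from the 14 SKOM libraries, and adjusted p-values are Benjamini-Hochberg values over all 10711 genes. That spread is how the effects of constructs differed between media, pooled over all combinations. It is not a spread among replicates of the p53 pairs, which had none. The labels do not say whether libraries came from separate cultures, so how much of the spread is technical is unknown.

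Trp53 (ENSMUSG00000059552, mm10 chromosome 11, 69580359 to 69591873) served to check the labels. It had a value of 810 with shDnmt1 and 453 with shp53+shDnmt1 in Vc- cells, and 1304 and 621 in Vc+ cells. The Flag+shLuc control libraries had 873 and 1194. Both knockdown libraries thus lay below every reference, and 55.9% and 47.6% of the reference value was left. The mean log2 change was -0.95 ± 0.14 (SE, limma adjusted p = 0.0112). In MEFs the value went further down, from 966 to 186 beside shDnmt1 and from 1008 to 157 without it, so that 19.3% and 15.6% was left. Dnmt1 had 527 and 726 in the Vc- pair and 1154 and 1319 in the Vc+ pair, so the library with both hairpins lay between shDnmt1 and the controls of 984 and 2346. Its change of 0.33 ± 0.13 did not pass the test (limma adjusted p = 0.218). Pou5f1, Sox2, Klf4 and Myc did not pass either. Pou5f1 went from 3688 to 4210 and from 5359 to 6109, whereas Myc was at the ceiling in both Vc- libraries and had 18104 and 13535 in Vc+.

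More genes were lower than higher with the p53 hairpin in both media. By limma, 207 of 10711 genes fell (1.93%) and 31 rose (0.289%), all of them with the same sign in both pairs, and 20 and 5 of these had a mean change of at least 2-fold. At an unadjusted p under 0.05 the counts were 1125 and 835. These counts rest on how the spread is estimated. A model without a term for the Tet1CD construct in each medium left 1 gene lower (Palm2Akap2) and 0 higher by limma, whereas the 4 libraries of the pairs alone gave 645 and 473. Counted without a test, among 9947 genes whose 4 libraries averaged 50 or more, 92 (0.925%) were lower and 32 (0.322%) higher by a log2 ratio past 0.58 (1.5-fold) in both pairs. Of these, 75 and 13 also passed limma. In single pairs 261 genes were lower (2.62%) and 212 higher (2.13%) past 0.58 in Vc- cells, and 279 (2.8%) and 138 (1.39%) in Vc+ cells. Across the 9947 genes, which are not independent replicates, the ratios of the 2 pairs had a Pearson correlation of 0.53 and a Spearman correlation of 0.52. The limit of 0.58 cut through a continuum: the smaller ratio was 0.582 for Top2a, just inside it, and 0.579 for Scara5, just outside, and the values nearest to the limit among lower genes were -0.58 for both Cdh13 and Nccrp1.

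**Figure D1:**
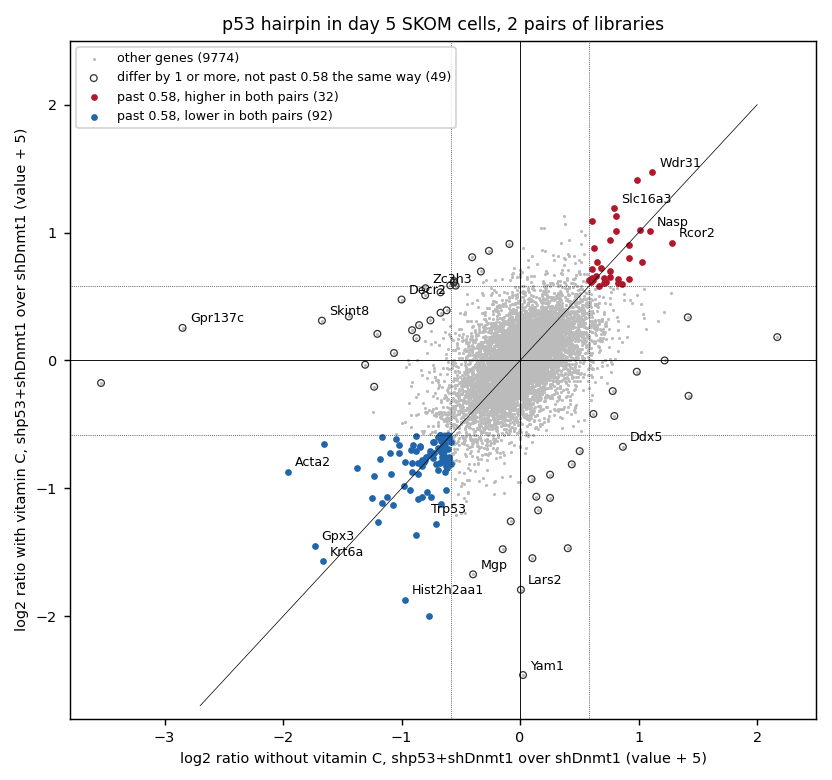
Log2 ratios of shp53+shDnmt1 over shDnmt1 (value + 5) in Vc- cells (x axis) and Vc+ cells (y axis) for 9947 genes averaging 50 or more; dotted lines mark 0.58 in each direction and the diagonal marks equal ratios. Blue points (92 genes) were lower and red points (32 genes) higher past 0.58 in both pairs, and open circles differed by at least 1 between pairs without being past 0.58 the same way in both.

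Promoter sequences are shown for 6 genes, all taken from those with a match to a known promoter element. They stand beside 3 groups in which members moved together: p53 targets, mitotic genes, and genes of the serum response. Sequences are from RefSeq (GRCm38.p6), 250 bases before to 50 after the start, written 5′ to 3′ on the gene's strand, with the matched letters in capitals. Cdkn1a (chr17:29090729-29091028, plus strand) and Ccng1 (chr11:40755237-40755536, minus strand) carry a p53 response element, which starts at position -51 and -195 and has 1 mismatch in each. Kif4 (chrX:100625815-100626114, plus strand) and Top2a (chr11:99024140-99024439, minus strand) carry TTTGAA, the core of the cell cycle genes homology region through which the DREAM complex holds mitotic genes down. Dusp5 (chr19:53528895-53529194, plus strand) and Fhl2 (chr1:43196712-43197011, minus strand) carry CArG boxes, the element bound by serum response factor. Fhl2 is outside the immediate early list used below and is shown as a gene that fell. CArG boxes were in 2.55% of promoters of genes that fell by limma, beside 1.6% of all.
Cdkn1a: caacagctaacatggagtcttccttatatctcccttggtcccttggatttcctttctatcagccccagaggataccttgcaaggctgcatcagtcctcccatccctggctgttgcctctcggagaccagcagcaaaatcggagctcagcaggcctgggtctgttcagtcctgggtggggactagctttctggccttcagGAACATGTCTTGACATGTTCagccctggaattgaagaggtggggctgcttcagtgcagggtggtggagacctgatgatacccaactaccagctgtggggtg
Ccng1: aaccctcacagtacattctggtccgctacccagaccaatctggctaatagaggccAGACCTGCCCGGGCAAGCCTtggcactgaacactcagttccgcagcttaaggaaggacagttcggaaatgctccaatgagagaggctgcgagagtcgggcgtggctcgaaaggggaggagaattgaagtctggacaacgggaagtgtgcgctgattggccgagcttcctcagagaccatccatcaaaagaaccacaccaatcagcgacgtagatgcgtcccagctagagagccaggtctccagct
Kif4: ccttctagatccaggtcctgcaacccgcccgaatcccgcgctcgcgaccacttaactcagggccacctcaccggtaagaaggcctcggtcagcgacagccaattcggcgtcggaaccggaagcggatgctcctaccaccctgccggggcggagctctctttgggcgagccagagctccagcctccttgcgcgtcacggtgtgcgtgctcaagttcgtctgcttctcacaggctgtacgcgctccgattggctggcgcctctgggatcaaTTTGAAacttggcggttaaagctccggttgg
Top2a: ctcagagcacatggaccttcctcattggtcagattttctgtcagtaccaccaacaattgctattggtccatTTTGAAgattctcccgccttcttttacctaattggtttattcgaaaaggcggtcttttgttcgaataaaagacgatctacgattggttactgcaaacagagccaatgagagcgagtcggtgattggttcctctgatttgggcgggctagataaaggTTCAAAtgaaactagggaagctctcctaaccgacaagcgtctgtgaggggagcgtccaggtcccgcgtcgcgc
Dusp5: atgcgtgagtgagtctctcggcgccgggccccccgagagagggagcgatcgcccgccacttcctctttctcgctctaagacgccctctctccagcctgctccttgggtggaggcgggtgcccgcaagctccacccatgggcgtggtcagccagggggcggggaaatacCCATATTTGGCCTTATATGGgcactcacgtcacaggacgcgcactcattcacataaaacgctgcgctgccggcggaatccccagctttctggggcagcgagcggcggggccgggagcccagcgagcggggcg
Fhl2: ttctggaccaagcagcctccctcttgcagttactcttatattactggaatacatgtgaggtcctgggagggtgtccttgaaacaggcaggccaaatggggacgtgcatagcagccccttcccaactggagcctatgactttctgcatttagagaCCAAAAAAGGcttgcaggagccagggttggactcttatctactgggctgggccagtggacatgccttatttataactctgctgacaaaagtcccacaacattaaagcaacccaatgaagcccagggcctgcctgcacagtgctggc

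Genes that p53 is known to switch on were mostly lower, by small amounts. Of 70 genes of this list 59 were measured, and 6 fell by limma (Perp, Plk2, Slc19a2, Epha2, Mdm2 and Abhd4) while 0 rose, beside 1.93% and 0.289% of all genes. Ratios were below 0 in both pairs for 46 of the 59 genes (78.0%) and above 0 in both for 6, against 32.3% and 33.6% of all genes. The median mean change was -0.27, with 0.0040 over all genes. Perp, which encodes a desmosome protein with a part in p53-dependent death, had 1384 and 876 in the Vc- pair and 1818 and 1074 in the Vc+ pair (-0.71 ± 0.12, limma adjusted p = 0.0171). Mdm2, the ligase that keeps p53 low and is itself switched on by p53, had 1511 and 1029 in Vc- and 1513 and 1010 in Vc+ (-0.57 ± 0.09, limma adjusted p = 0.0154). In the 2 pairs 68.1% and 66.75% of the reference value of Mdm2 was left. The polo-like kinase gene Plk2 went from 614 to 407 and from 692 to 393, and the thiamine transporter gene Slc19a2 from 354 to 220 and from 496 to 304. The ephrin receptor gene Epha2 had 350 and 214 in Vc- and 406 and 267 in Vc+. All 6 genes were lower in both media, as were all 207 genes that fell by limma, so this adds nothing to the call.

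The known targets Cdkn1a, Ccng1 and Fas were lower in both pairs without passing the test. Cdkn1a, the Cdk inhibitor p21, had 2546 and 1968 in the Vc- pair and 2946 and 2418 in the Vc+ pair, so 77.3% and 82.1% was left (-0.33 ± 0.10, limma adjusted p = 0.132). Cyclin G1 (Ccng1) went from 10782 to 8450 and from 18103 to 10302 (-0.58 ± 0.19, limma adjusted p = 0.142). The death receptor gene Fas had 103 and 58, then 106 and 73 (-0.64 ± 0.16, limma adjusted p = 0.0636). Among apoptosis genes of this list the values were small: Bax had a mean change of -0.14, Pmaip1 (Noxa) of -0.21 and Bbc3 (Puma) of 0.09. Trp53i11 went opposite ways, from 31 to 20 in Vc- and from 39 to 70 in Vc+.

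The changes of the targets were smaller in SKOM cells than in MEFs, where Trp53 itself was lower. Of the 58 targets in the MEF table, 47 had a lower ratio in the MEF pair with shDnmt1 than in the SKOM mean, and 37 were past -0.58 there (9% of all genes). The MEF medians were -0.83 beside shDnmt1 and -0.95 without it. Across the 58 genes the SKOM mean and the MEF shDnmt1 ratio had a Pearson correlation of 0.53, given as a description of genes within single libraries. Whether the smaller change follows from the weaker knockdown was not tested.

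**Figure D2:**
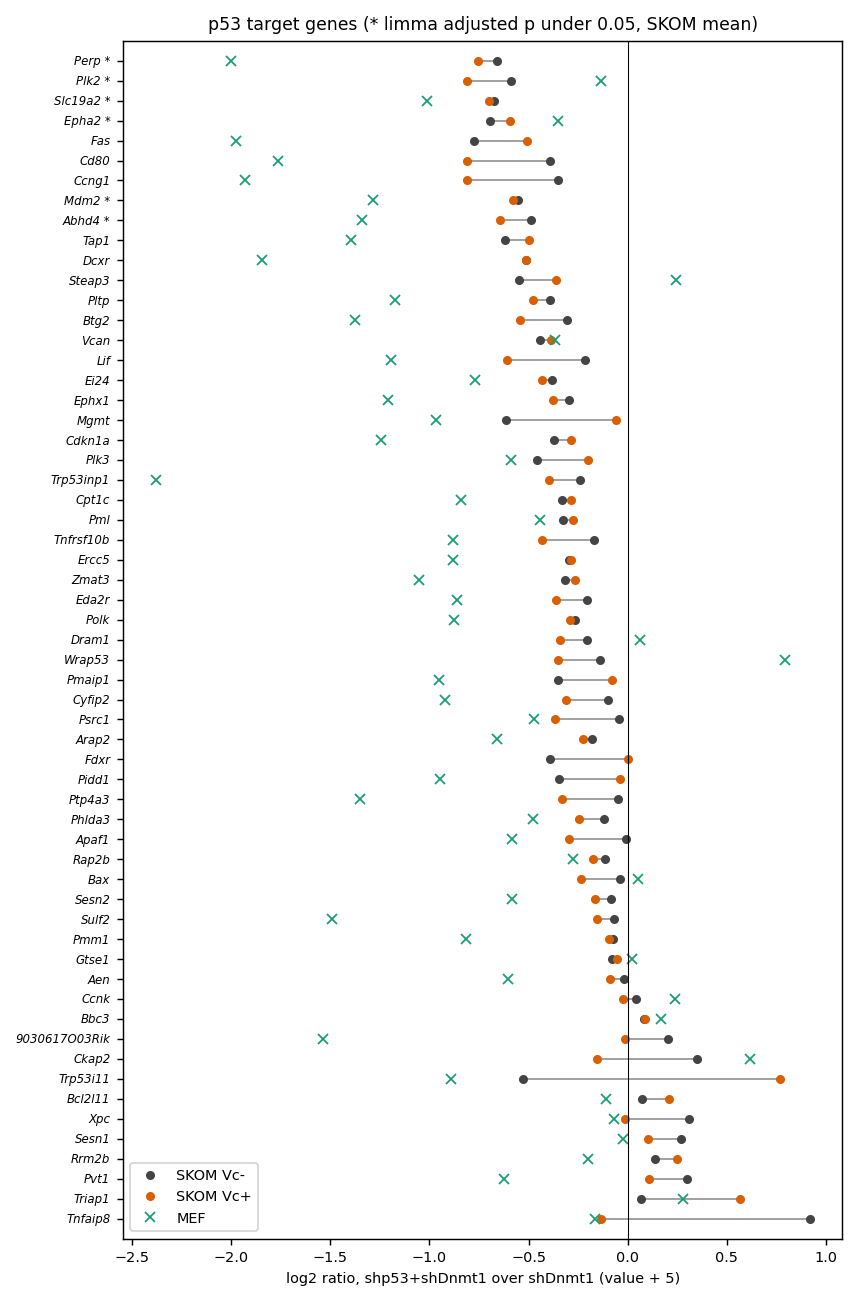
Log2 ratios of shp53+shDnmt1 over shDnmt1 (value + 5) for the 59 measured p53 target genes, in SKOM Vc- (grey points), SKOM Vc+ (orange points) and MEF (green crosses) pairs, ordered by the SKOM mean; an asterisk marks the 6 genes past the limma threshold. Most SKOM points lie left of 0, and 47 of 58 MEF crosses lie further left than the SKOM mean.

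A p53 response element (a pair of 10-base half-sites with a spacer of at most 1 base and at most 2 mismatches in all) was found in the promoter window of 6 of the 48 targets with a RefSeq promoter (12.5%), beside 0.932% of 8046 promoters of all measured genes. The 6 genes were Bax, Ccng1, Cd80, Cdkn1a, Ckap2 and Gtse1, whose mean changes ran from -0.60 (Cd80) to 0.10 (Ckap2). None of them passed the test. Among genes that fell by limma, 3 of 157 promoters (1.91%) held a match. The window does not reach the introns, where several known p53 elements lie.

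Genes of replication and mitosis were nearly all higher with the p53 hairpin, but few passed the test. Of 40 mitotic genes (G2/M) 39 had ratios above 0 in both pairs, and of 40 genes of the G1/S step and replication 35 did, against 33.6% of all genes. By limma 1 gene of each list rose (0.289% of all genes), Kif4 and Tk1. Kif4, a chromosome-binding kinesin, had 181 and 312 in the Vc- pair and 349 and 508 in the Vc+ pair (0.65 ± 0.14, limma adjusted p = 0.0445). Thymidine kinase 1 (Tk1) went from 193 to 276 and from 388 to 543 (0.49 ± 0.10, limma adjusted p = 0.0366). Both genes were higher in each medium, as were all 31 genes that rose by limma. Medians were 0.37 for the G2/M and 0.30 for the G1/S list, and at an unadjusted p under 0.05 by limma 28 and 24 members were higher. Topoisomerase 2a (Top2a) had 1334 and 1999, then 2779 and 4299, but its SE of 0.22 left it uncalled (limma adjusted p = 0.185). Medians in the Vc- and Vc+ pairs were 0.45 and 0.27 for the G2/M list and 0.41 and 0.26 for the G1/S list. Over all genes they were 0 and 0.0047. Each medium had 1 pair of libraries, and no member passed the test of the difference between media. The MEF pair with shDnmt1 gave medians of 1.41 and 1.18, with 38 of 40 and 33 of 40 genes past 0.58 in both MEF pairs (6.12% of all genes). TTTGAA, searched on both strands and chosen after the values were seen, was present in 24 of 34 G2/M promoters (70.6%), 4 of 32 G1/S promoters (12.5%) and 14.4% of all.

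The histone chaperone gene Nasp gave the most certain rise in the main model. Without the term for Tet1CD in each medium its limma adjusted p was 0.653. Nasp, which carries H1 and H3-H4 histones in dividing cells, had 608 and 1304 in the Vc- pair and 1657 and 3341 in the Vc+ pair, with control values of 709 and 1853 (1.05 ± 0.09, limma adjusted p = 0.00091). The same gene went from 483 to 1645 in MEFs with shDnmt1. Of 18 histone chaperone genes, a list made after the values were seen, 1 rose by limma (Nasp), beside 0.289% of all genes. Ratios were above 0 in both pairs for 15 of the 18 and below 0 in both for 0. Over all genes these shares were 33.6% and 32.3%. Hirip3, which binds the chaperone Hira, had 234 and 400, then 603 and 983 (0.73 ± 0.18, limma adjusted p = 0.0611). By contrast, the 7 measured genes named Hist had a median of -0.53. Hist2h2aa1 (99 and 48, then 90 and 21) and Hist1h1c (282 and 203, then 208 and 143) fell by limma (adjusted p = 0.0193 and 0.0421), beside 1.93% of all genes. In the MEF pairs with and without shDnmt1, Hist1h1c had ratios of 0.50 and 0.20, and Hist2h2aa1 of -1.26 and -2.43. Near-identical copies of such genes can share reads, so these values are uncertain.

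Other genes that rose have varied roles. The largest mean change was that of Wdr31, a WD-repeat gene, with 87 and 194 in Vc- and 203 and 572 in Vc+ (1.29 ± 0.26, limma adjusted p = 0.0359). Rcor2, a corepressor that works with the demethylase Lsd1, had 68 and 172, then 230 and 440 (1.10 ± 0.22, limma adjusted p = 0.0314). Pdzd4 went from 46 to 98 and from 98 to 204, the nuclear pore gene Nup210 from 192 to 397 and from 401 to 686, and Capn6, a microtubule-binding calpain without protease activity, from 121 to 208 and from 241 to 468. In all of these the library with the p53 hairpin was higher in each medium, as in all 31 genes that rose by limma. Arhgap19, Spata13, Bex1 and Hoxd13 rose by 0.66 to 0.73. Of the lists of named function, pluripotency genes had 7 of 32 members in both tables, of which Tet1 rose. Tet1, which oxidises 5-methylcytosine, had 11 and 19 in Vc- and 41 and 88 in Vc+ (0.80 ± 0.14, limma adjusted p = 0.0184), low values in both media. Trim71, an RNA-binding protein of early embryos, had 30 and 61, then 84 and 161 (limma adjusted p = 0.0547). The imprinted gene Peg10 rose (286 and 408, then 340 and 545, limma adjusted p = 0.0421) and so did the chaperonin subunit gene Cct5 (2300 and 3127, then 4586 and 6115, limma adjusted p = 0.0421).

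**Figure D3:**
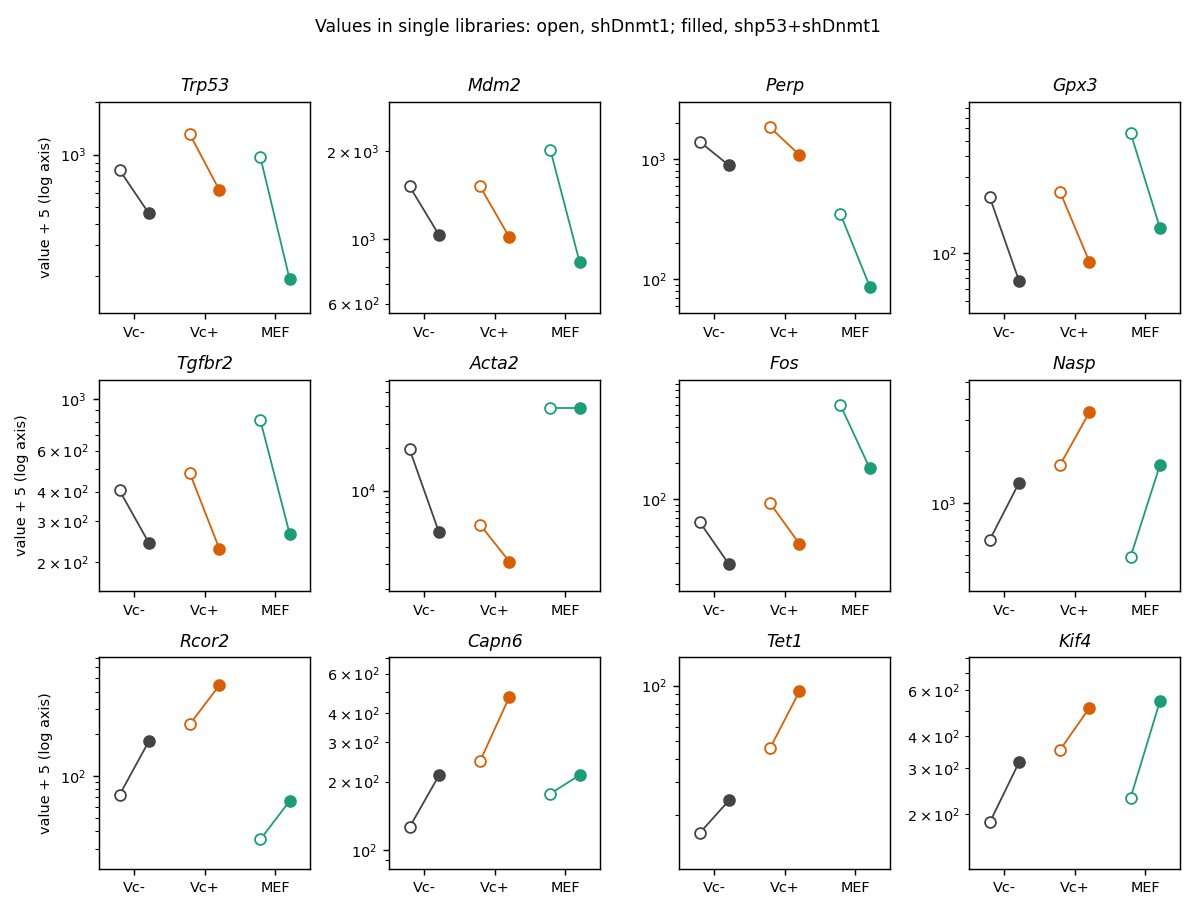
Values plus 5 on a log axis in single libraries for 12 genes; open circles are shDnmt1 and filled circles shp53+shDnmt1 libraries in Vc- (grey), Vc+ (orange) and MEF (green) tables, which were normalized separately. Lines fall for Trp53, Mdm2, Perp, Gpx3, Tgfbr2 and Fos and rise for Nasp, Rcor2, Capn6 and Kif4 in every table, Acta2 is at the ceiling in both MEF libraries, and Tet1 has no MEF value.

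Gpx3, the secreted glutathione peroxidase, was the most certain fall apart from Palm2Akap2 in the main model. Without the term for Tet1CD in each medium the limma adjusted p of Gpx3 was 0.66. Gpx3 had 218 and 62 in the Vc- pair and 235 and 83 in the Vc+ pair, with controls of 223 and 283 (-1.59 ± 0.10, limma adjusted p = 4.17e-05). In MEFs it went from 558 to 139. The wound keratin gene Krt6a had 87 and 24, then 84 and 25 (-1.62 ± 0.28, limma adjusted p = 0.0189). Monoacylglycerol lipase (Mgll) went from 128 to 51 and from 147 to 67, and the membrane glycoprotein gene Gpnmb from 228 to 106 and from 288 to 129 (limma adjusted p = 0.00207 and 0.00157). The libraries with the p53 hairpin held the lower value in each of these comparisons, as for all 207 genes that fell by limma. The adhesion receptor gene Icam1 (52 and 17, then 88 and 47) fell as well (limma adjusted p = 0.0277). Palm2Akap2 (ENSMUSG00000089945) had 76 and 88 with shDnmt1 and was listed at 0 in both libraries with the p53 hairpin. It overlaps Akap2, between which reads can be split, so its listing at 0 is given without a fold.

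Genes of the smooth muscle and mesenchymal programmes of fibroblasts fell in part. Of 14 measured smooth muscle genes 5 fell by limma (Acta2, Des, Cnn1, Tagln and Myl9) and 0 rose, and of 41 mesenchymal genes 7 fell (Lox, Acta2, Tgfb1, Tagln, Prrx2, Bgn and Fbln2) and 0 rose, with Acta2 and Tagln in both lists. Over all genes 1.93% fell and 0.289% rose. Medians were -0.37 and -0.32. Smooth muscle actin (Acta2) was at the ceiling of 19681 in the Vc- reference and the Vc- control and had 5063 with the p53 hairpin, and in Vc+ it had 5728 and 3129 (-1.41 ± 0.20, limma adjusted p = 0.0108). Its fall in Vc- cells is therefore cut short by the ceiling, and in MEFs all libraries of the pairs were at the ceiling of 38803. Desmin (Des) had 42 and 20, then 44 and 10, and calponin 1 (Cnn1) had 146 and 68, then 98 and 64. The lysyl oxidase gene Lox, which crosslinks collagen, had 2879 and 1345, then 1208 and 729 (-0.91 ± 0.13, limma adjusted p = 0.0108). Collagen 1 (Col1a1) had 5063 and 3693, then 4586 and 3346 and just missed the threshold (limma adjusted p = 0.0547). Of a separate list of 8 fibroblast marker genes 7 were measured and 0 passed, and their summed value went from 14176 to 11906 in Vc- and from 15290 to 11264 in Vc+. Fewer cells of a type and less RNA per cell cannot be told apart in such bulk libraries.

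Members of the TGF-beta pathway, which drives these programmes in fibroblasts, stood among the falling genes, a grouping made after the values were seen. Of 37 measured genes of the pathway 8 fell by limma and 0 rose, and 26 had ratios below 0 in both pairs, beside 1.93%, 0.289% and 32.3% of all genes. The type II receptor gene Tgfbr2 had 400 and 236 in the Vc- pair and 474 and 223 in the Vc+ pair (-0.91 ± 0.09, limma adjusted p = 0.00207), with controls of 612 and 654. The ligand gene Tgfb1 went from 123 to 78 and from 126 to 60, and the activin subunit gene Inhba from 251 to 109 and from 137 to 89. Lrrc32, which displays latent TGF-beta at the cell surface, had 101 and 70, then 137 and 57. The feedback gene Pmepa1, the activin antagonist gene Fst and the latency protein gene Ltbp2 fell as well. Each was lower with the p53 hairpin in both media, as were all 207 genes that fell by limma.

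Secreted proteins of senescent and wounded fibroblasts were mostly lower. Of 19 measured genes of this list 6 fell by limma and 0 rose, and 14 were below 0 in both pairs, with a median of -0.48. Over all genes 1.93% fell, 0.289% rose and 32.3% were below 0 in both pairs. The Cdk4 inhibitor gene Cdkn2b had 226 and 97 in Vc- and 218 and 126 in Vc+ (-0.97 ± 0.16, limma adjusted p = 0.0154). Its neighbour Cdkn2a, which encodes p16 and Arf, went the other way, from 104 to 131 and from 117 to 178, without passing (limma adjusted p = 0.186). Plau, the urokinase gene, had 70 and 33, then 92 and 44 (limma adjusted p = 0.0126). Igfbp7 went from 506 to 242 and from 416 to 270, and Timp1 and Igfbp3 fell by 0.54 and 0.52.

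Immediate early genes, which serum and growth factors switch on within minutes, were mostly lower, with a median of -0.39. Ratios were below 0 in both pairs for 21 of the 24 genes, against 32.3% of all genes. Those that fell by limma were Fos, Cyr61, Dusp1, Ctgf and Dusp5, 5 of 24 beside 1.93% of all genes. The AP-1 gene Fos had 60 and 24 in the Vc- pair and 88 and 38 in the Vc+ pair (-1.14 ± 0.22, limma adjusted p = 0.0288). Cyr61 went from 1820 to 1141 and from 1690 to 772, and Ctgf from 2867 to 2078 and from 2586 to 1127. Both are matricellular proteins of the Yap and serum response pathways. The phosphatase gene Dusp1 had 414 and 280, then 397 and 180. The transcription cofactor genes Ankrd1 and Fhl2, outside the list, fell too: Ankrd1 had 89 and 36, then 98 and 38, and Fhl2 had 94 and 47, then 88 and 41. In MEFs the median of the list was -0.01 beside shDnmt1 and -0.07 without it, and 2 of 24 members were past -0.58 in both pairs (5.52%). A CArG box was present in the promoters of 3 of 11 smooth muscle genes (27.3%), 2 of 17 immediate early genes (11.8%) and 1.6% of all. It was in 4 of 157 genes that fell by limma (2.55%) and 2 of 63 lower past 0.58 in both pairs (3.17%). TGANTCA, a loose form of the AP-1 element with any base in the middle, was in 19 of 157 genes that fell by limma (12.1%) beside 5.9% of all. It was in 5 of 63 genes lower past 0.58 in both pairs (7.94%), 1 of 11 smooth muscle genes (9.09%) and 0 of 17 immediate early genes. Both motifs were searched on both strands and chosen after the values were seen.

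**Figure D4:**
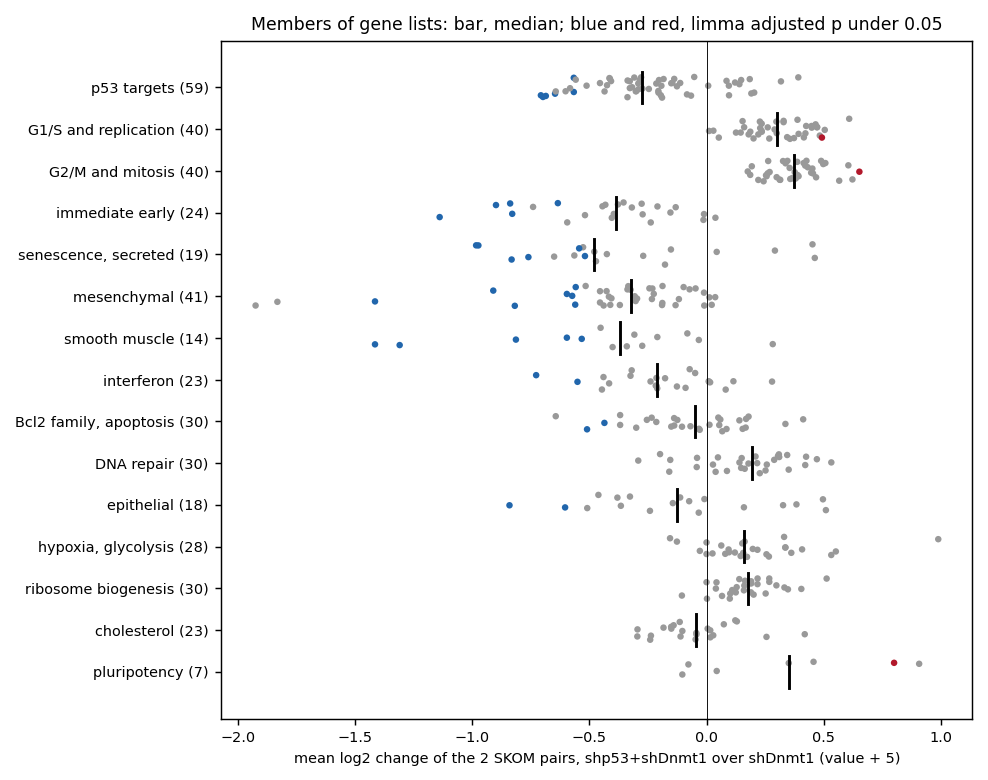
Mean log2 change of the 2 SKOM pairs (x axis, value + 5) for the members of 15 gene lists, with the number measured in brackets; each point is a gene, black bars are medians, and blue and red points passed limma at an adjusted p under 0.05. The p53 target, immediate early, secretory, mesenchymal and smooth muscle medians lie below 0 and the G1/S and G2/M medians at 0.30 and 0.37.

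Other groups held 0 to 2 called genes each, where 1.93% of all genes fell and 0.289% rose. Of 28 genes of hypoxia and glycolysis 0 passed, with 15 above 0 in both pairs, against 33.6% of all genes. The lactate carrier gene Slc16a3 (28 and 52, then 120 and 280) was uncalled (limma adjusted p = 0.0524). Of 30 DNA repair genes, 30 ribosome biogenesis genes, 23 cholesterol genes and 18 Nrf2 genes 0 passed, and medians were 0.19, 0.18, -0.05 and -0.05. Of 30 Bcl2 family and apoptosis genes Cflar and Tnfrsf1a fell, by 0.51 and 0.44. Among interferon genes Xaf1 fell, from 46 to 21 and from 157 to 111. Of 18 epithelial genes Itgb4 (2136 and 1554, then 3627 and 2156) and Sfn (74 and 34, then 90 and 55) fell, and the median was -0.13. Of the 18, 11 were below and 4 above 0 in both pairs, against 32.3% and 33.6% of all genes.

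Markers of cell types other than fibroblasts were measured in part. Of 36 epithelial markers 18 were in both tables, and their summed value was 15298 and 13729 in the Vc- pair and 22539 and 18497 in the Vc+ pair. Of 12 macrophage markers 4 were in both tables. Itgam (63 and 32, then 124 and 45) and Cd68 (39 and 25, then 74 and 28) fell by limma (adjusted p = 0.0108 and 0.0421), Laptm5 went from 285 to 268 and from 259 to 230, and Ptprc had 13 and 0, then 15 and 27. The summed value of the 4 genes was 400 and 325 in Vc- and 472 and 330 in Vc+. Of 8 keratinocyte markers 4 were measured, among them Perp and Sfn, which fell. The summed value of the 4 genes went from 1610 to 1005 and from 2401 to 1445. Most of that sum, and of its fall, was the p53 target Perp alone, whose values are given above. The part of such cells in the results was not tested.

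Differences between the media were not detected by the test. By limma 0 of 10711 genes differed between the 2 pairs (0%), with 117 higher and 111 lower in Vc+ at an unadjusted p under 0.05, and the smallest adjusted p was 0.104. By size alone 28 genes (0.281%) had a ratio higher in Vc+ by at least 1 with a ratio past 0.58 in at least 1 pair, and 24 (0.241%) had it lower. None of these passed limma, the smallest adjusted p being 0.875 and 0.186 in the 2 directions. Past 0.58 in opposite directions were only Kpna2 (165 and 108 in Vc-, 214 and 324 in Vc+) and Ddx5 (10788 and 19681, then 28926 and 18111), the latter at the ceiling in each medium. Zc3h3 (115 and 64, then 114 and 171), Decr2 (61 and 28, then 64 and 91) and Syt13 (94 and 35, then 82 and 80) were lower with the p53 hairpin in Vc- but not in Vc+. Lars2 (212 and 213, then 1187 and 339), Yam1 (1318 and 1341, then 8456 and 1533) and Mgp (74 and 55, then 148 and 43) were lower mainly in Vc+. Acta2 and Atg9b (102 and 29, then 166 and 104) were lower in both pairs and still differed by 1.09 and 1.00.

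Most genes lower in both SKOM pairs were also lower in MEFs, whose 4 libraries are not shared with the SKOM pairs. Of the 92 genes, 84 were in the MEF table, and 57 were past -0.58 in the pair with shDnmt1 (9% of all genes) and 49 in both MEF pairs (5.52%). The medians of the 84 were -0.85 beside shDnmt1 and -0.87 without it, and only the predicted gene Gm26870 was past 0.58 the opposite way. Of the 32 higher genes 26 were in the MEF table, with 12 past 0.58 (9.69%) in the pair with shDnmt1 and 11 in both (6.12%), and medians of 0.51 and 0.61. Spata13 was the 1 gene past -0.58 there. Among the genes that did not follow, Ankrd1 had 755 and 827 and Fhl2 had 767 and 812 in the MEF pair with shDnmt1, and Wdr31 had 104 and 113.

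**Figure D5:**
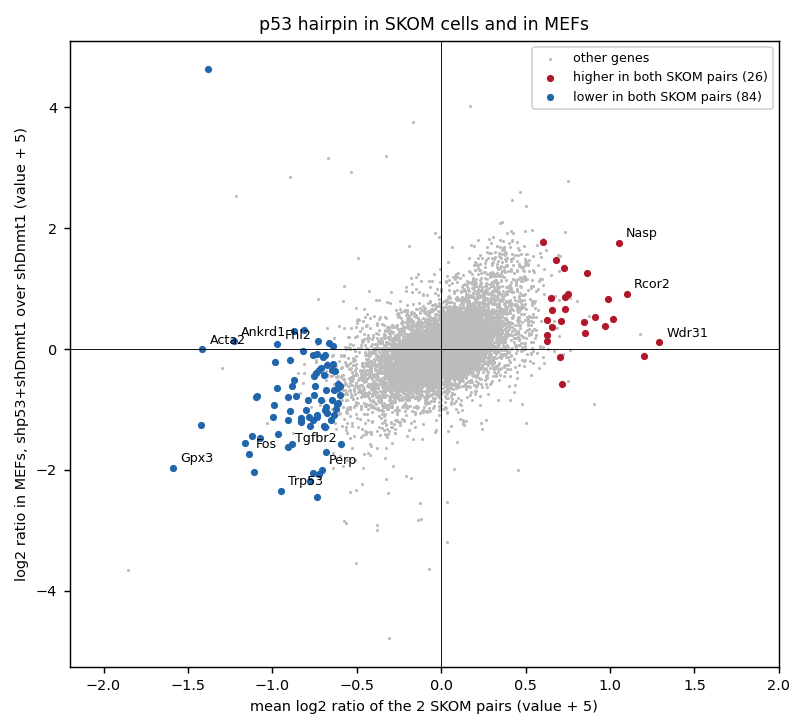
Mean log2 ratio of the 2 SKOM pairs (x axis) against the log2 ratio of shp53+shDnmt1 over shDnmt1 in MEFs (y axis), value + 5, for genes with a MEF value; blue and red points are the 84 and 26 genes past 0.58 in both SKOM pairs. Of the blue points 57 lie below -0.58 on the y axis, and Acta2, Ankrd1 and Fhl2 are near or above 0.

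The Tet1CD construct, which carries sequence of Tet1, moved some of the same genes the opposite way. In the ratio of the library with Tet1CD alone over the Flag+shLuc control, 14 of the 92 genes lower with the p53 hairpin were past 0.58 higher with Tet1CD in both media (1.07% of all genes), and 0 were lower (0.583%). Among the 14 were the prostaglandin synthase gene Ptgs2, the serine protease gene Htra1, the kinase gene Sgk1 and Itgam. Ptgs2 had 1322 and 726 in the Vc- pair and 1080 and 616 in the Vc+ pair, and the Tet1CD log2 ratios were 0.71 and 2.08. None of the libraries in the Tet1CD ratio is in the p53 pairs.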

How the data were processed

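Each value is a score: a whole number per gene that the authors had normalized within each of 3 deposited tables (Vc-, Vc+ and MEF, 7 libraries each). Bowtie, RSEM and mm10 appear in the submitters' processing notes; for the normalization and the strand setting the sources used here give nothing. The SKOM tables share 10711 genes. Values were taken as log2(value + 5) with a mean of at least 10. The main test was limma 3.58.1 (R 4.3.3, intensity trend, Benjamini-Hochberg, threshold 0.05) on 14 SKOM libraries, with 7 construct levels, medium and medium by Tet1CD (5 residual degrees of freedom). The difference between media came from a model with 3. Ratio counts used a mean of at least 50, and MEF ratios have no test. Both models were tested on simulated data. Named genes are the targeted genes and factors, the 10 largest per direction by test and by ratio, the 8 largest differences and up to 4 per list; others, such as the TGF-beta genes, the histone genes, Cdkn1a, Ccng1, Fas, Ptgs2 and Kpna2, were chosen after their values were seen. Members and lists were chosen with earlier results of these data known. Alternatives were the pseudocount, filters, trend, model terms and left-out libraries. Depth is unknown, so no counting error was computed. A few genes of the lists are not reported here.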

Additional observations from a re-analysis of the deposited data

How the results depend on the processing

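The counts of genes that fell or rose by limma depended on the model. Most alternatives leave the mean of the 2 pair ratios as it is by construction and change only its spread, so a kept sign there is no sign of stability. Against 207 lower and 31 higher, an additive model gave 1 and 0, a model without the medium by Tet1CD term 1 and 0, no intensity trend 59 and 12, the 8 libraries without Tet1CD 578 and 423, and the 4 libraries of the pairs 645 and 473. Leaving out single libraries or 1 pair gave 5 to 425 lower and 1 to 171 higher. Counts moved past 1.5 times without the Dnmt1 library (96 and 12 in Vc-, 103 and 12 in Vc+), the Flag+shLuc control (108 and 12, 113 and 12), Tet1CD+shDnmt1 (320 and 92, 321 and 93) and Tet1CD (425 and 169, 425 and 171). With only the Vc+ pair the counts were 9 and 3, and with only the Vc- pair 5 and 1; the lone pair is assumed to vary like the other combinations. The cause was not tested.

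Gpx3 kept its size without the medium by Tet1CD term (-1.59) but had a limma adjusted p of 0.66, and Nasp had 0.653 and Trp53 0.223. Signs turned for uncalled genes: Trp53i11 had -0.00097 in the additive model and ran from -0.53 to 0.77 over the left-out libraries or pairs, Ckap2 from -0.16 to 0.35 and Ptprc from -1.85 to 0.68. The difference between media, 0 higher and 0 lower by limma, gave 1 and 3 with a pseudocount of 1, 2 and 10 in the 8 libraries without Tet1CD, and 0 and 4 with 4 interaction terms; no single left-out library changed it. Ratio counts moved as their limits did: with a pseudocount of 20, 18 genes were higher in both pairs and 11 differed upward in Vc+. With a limit of 1, 3 were higher and 7 lower in both pairs, with a difference of 1.5, 4 were higher and 7 lower in Vc+, and with a mean of at least 10, 72 and 67. The media serve as the pairs in all ratios and in the fit to the 4 libraries; a block by replicate number could not be fitted, since each combination had 1 library and the labels carry no replicate numbers. Depth cannot be judged from these scores, and the ceiling limits changes of the most abundant genes.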
